A study of Homo sapiens with 12 samples.

Results

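The comparison described here is that of SIRT1 knockdown cells with control cells over all genes, which takes 6 of the 12 RNA-seq libraries in the series, 3 in each group. All cells were MDA-MB-231, a triple-negative breast cancer line of mesenchymal character, and every group, the control included, stably carried a lentiviral short hairpin RNA (shRNA) and had been selected with puromycin. The control hairpin was a sham sequence, and the other groups carried a hairpin against SIRT1, one against IGF2BP2, or both. Polybrene at 8 µg/mL and puromycin at 2 µg/mL were listed for every library, with 10% serum. Beyond these no agent was listed, and the cells were labelled untreated. Lentivirus had been packaged in HEK-293T cells. No source used here gives the hairpin sequences, how many were used per gene or whether infections were separate, so the groups are compared as stable populations made with a hairpin of unknown sequence. The 6 remaining libraries, IGF2BP2 knockdown and double knockdown, enter as a second comparison of cells with and without a SIRT1 hairpin. It shares no library with the first.

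SIRT1 is an NAD-dependent deacetylase of the nucleus. It removes acetyl groups from histones and from transcription factors such as FOXO3 and HIF-1alpha, and so couples gene expression to the supply of NAD. In breast cancer cells it is known both for silencing chromatin and for acting on signalling and organelle genes.

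SIRT1 itself was lower in all 3 knockdown libraries. Its normalised read counts were 799, 841 and 863 in the control libraries and 547, 496 and 539 in the knockdown libraries, that is 834 ± 32.7 against 527 ± 27.5 (SD, n = 3). On the log2(normalised count + 1) scale, which all fold changes here use, the difference was -0.66 (95% interval -0.83 to -0.50; limma, adjusted p = 4.3e-06). The groups did not overlap, and 63.2% of the control level of SIRT1 RNA remained.

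Of 17576 genes that passed the filter on low counts, 28.6% changed at an adjusted p under 0.05 (limma, Benjamini-Hochberg), 12.9% upward and 15.7% downward. In counts, 2272 genes rose and 2758 fell. Among protein-coding genes, as most members of the lists below are, 15.8% rose and 19.0% fell. A change of at least 2-fold was seen in 478 genes, 2.72% of those tested, of which 126 rose and 352 fell, so the large changes were mostly losses. The median log2 fold change over all tested genes was -0.0018. The groups did not overlap, with every library of one above every library of the other, in 51% of all tested genes. All 12 libraries shared the estimate of the spread; with only the 6 compared, 7784 genes were called, 3797 of them higher.

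**Figure D1:**
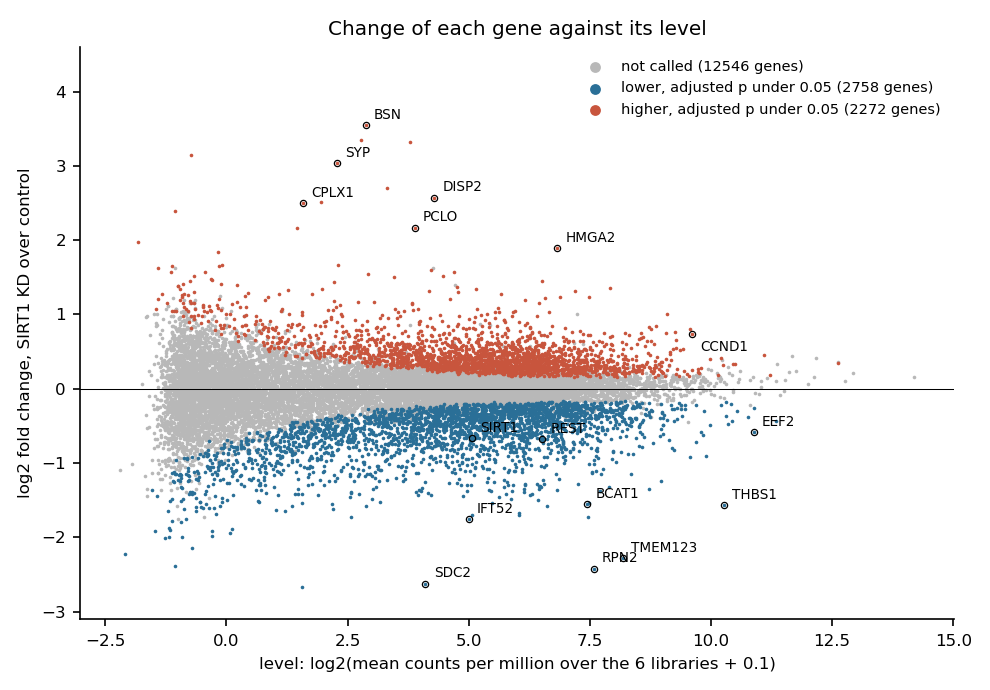
Log2 fold change of each of the 17576 tested genes in SIRT1 knockdown over control (y axis) against its level, as log2 of the mean CPM over the 6 libraries plus 0.1 (x axis); each point is a gene, and circles mark the genes labelled by name. Below -1 the points reach up to highly expressed genes such as THBS1, while the largest rises, led by BSN at 3.55, are genes of low or middle level.

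Each of the 6 libraries held 19539588 to 21570882 reads assigned to genes. Mitochondrial transcripts took 1.99% to 2.22% of reads in control and 2.54% to 2.57% in knockdown libraries. All 13 mitochondrially encoded protein genes had a higher mean in knockdown libraries, from 0.13 for MT-ND2 to 0.36 for MT-CO1. Of these only MT-ND4L (0.31) passed the test (limma, adjusted p = 0.0036). The shared estimate of the spread takes in double knockdown replicate 2, whose mitochondrial share was 1.18%. Values of these genes without that library are not given here. The 6 mesenchymal markers listed for the line all passed the filter, with summed levels of 5891 to 6064 CPM (read counts scaled to a common library total) in control and 6032 to 6270 in knockdown libraries. None of 6 HEK-293T markers passed it, their sums were 0.0464 to 0.476 against 0.0475 to 0.0938 CPM, and EMX2 had no read at all. Of 7 measured luminal and epithelial markers 4 fell and none rose, with a median of -0.37, among them EPCAM, from 11.03 to 11.9 CPM in control to 7.98 to 9.06 CPM in knockdown libraries, and ELF3, from 5.05 to 5.91 CPM to 2.25 to 2.87 CPM. Their sum was nevertheless 1445 to 1478 CPM in control and 1589 to 1637 CPM in knockdown libraries, nearly all of it from the keratins KRT8 (0.17), KRT18 (-0.01) and KRT19 (0.32), none of which passed the test (limma, adjusted p = 0.15, 0.95 and 0.051). The count of falls was 1 without SIRT1 knockdown replicate 2 and 2 without SIRT1 knockdown replicate 1 or any 1 of the controls, and KRT8 and KRT19 rose without double knockdown replicate 1 or 2 (limma, adjusted p = 3.4e-06 to 0.037). EPCAM lost its call without any 1 of the 6 compared libraries (limma, adjusted p = 0.051 to 0.15). Fibroblast markers summed to 35.4 to 36.6 against 24.0 to 27.7 CPM, and of 4 measured 2 fell and 1 rose. Most of the lower sum was PDGFRB, from 20.4 to 22.2 CPM in control to 7.32 to 9.18 CPM in knockdown libraries. COL1A1 went the other way, from 10.7 to 11.4 CPM to 14.5 to 16.7 CPM. The rise was not counted without SIRT1 knockdown replicate 1 or 2 or control replicate 1 or 3. Their part in the results was not tested. In bulk RNA, fewer cells of one kind and less RNA per cell cannot be told apart. One library outside the 6, double knockdown replicate 2, stood apart with 15243152 reads and a mitochondrial share of 1.18%; without it 7017 genes were called.

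Genes with a certain short stretch of sequence in their 3′ untranslated regions (UTRs) were lower more often than the others. All 7-base words present in the 3′ UTRs of at least 100 tested genes were ranked by how far genes carrying them lay from the rest, and of 15716 words the first and second were CTCAGAT, in 1462 genes with a median log2 fold change of -0.21, and TCAGATA, in 1261 genes with a median of -0.19. The next word, TCAGATT, came with a median of -0.10. The leading pair overlap and join into the 8-base word CTCAGATA. Because the words were ranked on this very comparison, the values that follow describe it and are not a test. The windows below are 30 bases of the sense strand, 5′ to 3′, with the matching word in capitals. They were read from GRCh38 with the GENCODE 29 gene models and are shown because these genes are among the deepest falls or stand at the head of the pathways described next. RPN2, a subunit of the enzyme that transfers N-glycans to new proteins, carries it in its last exon at chr20:37241486-37241515 (+), IFT52, of the intraflagellar transport B complex, at chr20:43647115-43647144 (+), and CNIH1, a cargo receptor of the endoplasmic reticulum (ER), at chr14:54427608-54427637 (-). The windows of SEMA3C, a secreted guidance cue, LOX, which crosslinks collagen, BCAT1, which transaminates branched-chain amino acids, and SENP1, a SUMO protease, lie at chr7:80743860-80743889 (-), chr5:122066161-122066190 (-), chr12:24817691-24817720 (-) and chr12:48045132-48045161 (-). SIRT1 holds the same 8 bases, but in coding exon 8 of 9, at chr10:67912484-67912513 (+).
SIRT1: ccatgaagtgcCTCAGATAttaattaatag
RPN2: tacctggtgagCTCAGATAgtctctttctc
IFT52: cttctgtaataCTCAGATAggtataagatt
CNIH1: catatgttataCTCAGATAaagattttaaa
SEMA3C: ttaaaaccagtCTCAGATAtcatactgatt
LOX: caatacatgtaCTCAGATAgttacatccct
BCAT1: tttgtacttcaCTCAGATActaaatagtag
SENP1: tccttttgtatCTCAGATActatttttgca

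The share of genes that fell grew with the number of matches. A 3′ UTR of at least 50 bases could be searched on the sense strand in 12674 tested genes. Of these, 2220 held at least 1 of the leading pair, and 39.8% of those fell. Among the 10454 with neither 7-base word, 14.9% fell, 17.3% rose and the median was 0.02. One match to a 7-base word outside the 8-base word came with 35.5% lower genes (1531 genes, median -0.13), 2 matches with 43.1% (297 genes, median -0.23) and 3 or more with 58.0% (81 genes, median -0.37). Where the 8-base word was the only match, 104 of 208 genes fell (median -0.28), and with further matches 58.3% of 103 genes (median -0.37). The 296 genes with the 8-base word in the coding sequence and no match in the 3′ UTR had 34.8% lower members and a median of -0.13. Longer UTRs hold more words, so the genes were also split into 4 classes of UTR length: in the shortest, 43.9% of 82 genes with a match fell against 13.6% of 3088 without one, and in the longest 37.6% of 1323 against 16.1% of 1845.

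**Figure D2:**
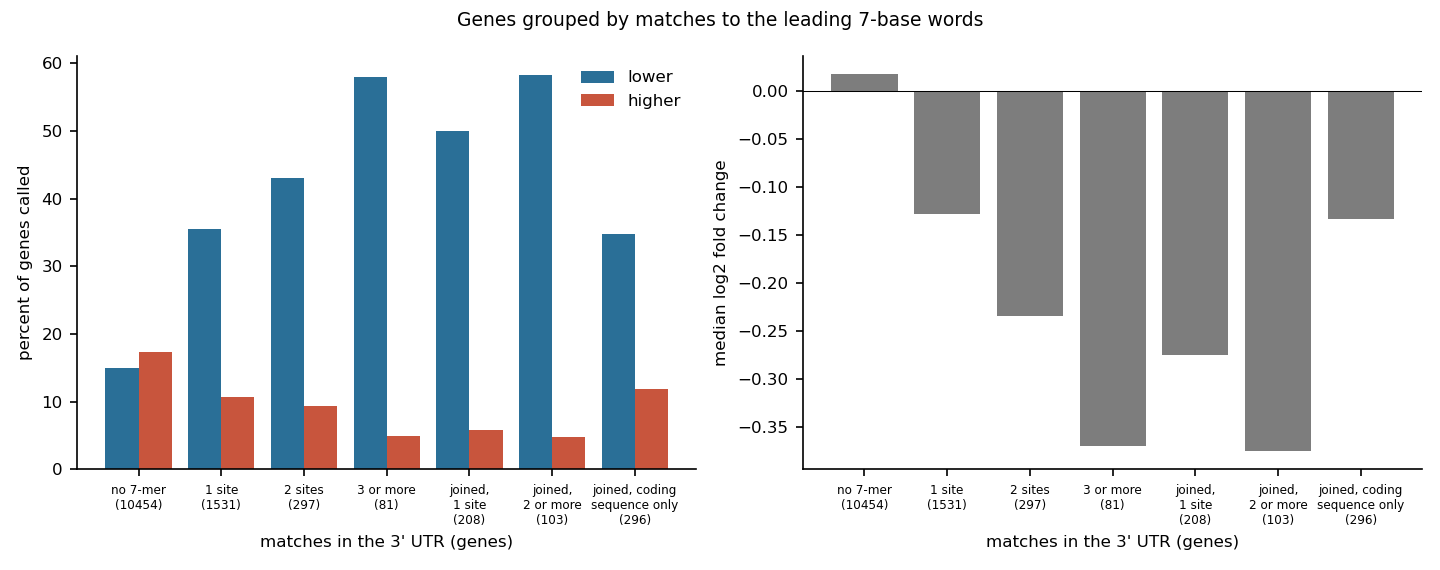
Percent of genes called lower (blue) or higher (red) in SIRT1 knockdown (left) and median log2 fold change (right) for genes grouped by matches to the leading 7-base words in the 3′ UTR, with the number of genes in parentheses; "joined" is the 8-base word made of both. Lower genes go from 14.9% with no match to 58.0% with 3 or more matches.

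The same classes lay in the same order in the second pair of groups. In double knockdown over IGF2BP2 knockdown, the median was 0.05 for genes without a match, -0.11 with 1 match, -0.17 with 2, -0.27 with 3 or more, and -0.45 for those with the 8-base word and another match. No source used here says whether the double knockdown carried the same SIRT1 hairpin. Among 2370 human mature microRNAs in the RefSeq table, 1 has a seed (bases 2 to 8) that pairs with CTCAGAT, hsa-miR-3200-5p, and none pairs with TCAGATA; microRNA levels were not measured here. What the matches have to do with the falls was not tested.

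Several genes of neuronal exocytosis rose from low levels, while others of the same machinery fell or did not pass the test. BSN encodes bassoon and PCLO piccolo, the giant scaffolds of the active zone where synaptic vesicles dock; SYP encodes synaptophysin, a protein of the vesicle membrane, CPLX1 complexin 1, which clamps the fusion machinery, and SYT1 synaptotagmin 1, its calcium sensor. Normalised counts of SYP were 23.0, 14.9 and 24.1 in control libraries and 170, 158 and 196 in knockdown libraries, a log2 fold change of 3.04 (95% interval 2.66 to 3.42; limma, adjusted p = 1.3e-09). CPLX1 read 18.2, 16.8 and 16.4 against 98.3, 105 and 100, which is 2.49 on the same scale (95% interval 2.12 to 2.87; limma, adjusted p = 1.0e-08). SYT1 read 46.0, 48.6 and 45.3 against 151, 148 and 151, or 1.66 (95% interval 1.32 to 2.01; limma, adjusted p = 4.4e-07). In none of these did the groups overlap. BSN rose by 3.55 and PCLO by 2.17.

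Across the active zone list, 6 of 11 measured genes rose and 1 fell, with a median of 0.37. The other rises were the liprins PPFIA3 (1.17) and PPFIA1 (0.45), the priming factor UNC13B (0.39) and the scaffold ERC1 (0.35), and the fall was PPFIA4 (-0.80). Of 14 vesicle fusion genes, 5 rose and 3 fell, with a median of 0.01: the rises included SYT7 (0.86), another calcium sensor, and the falls VAMP2 (-0.34), a SNARE protein of the vesicle. SYT7 lost its call without any 1 of the SIRT1 knockdown libraries, control replicate 2 or control replicate 3 (limma, adjusted p = 0.051 to 0.094). The large gains were thus in single members, and the median of the fusion list lay near that of all genes.

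REST, a zinc finger repressor that keeps neuronal genes silent outside neurons, was lower, as were several of its corepressors. REST read 2229, 2228 and 2366 in control and 1414, 1407 and 1450 in knockdown libraries, with no overlap and a log2 fold change of -0.68 (95% interval -0.86 to -0.49; limma, adjusted p = 1.0e-05). Among 11 genes listed for REST and its partners, 6 fell, 1 rose and the median was -0.42. Besides REST these were the corepressor RCOR1 (-0.48), the scaffold SIN3A (-0.42), the deacetylases HDAC1 (-0.50) and HDAC2 (-0.25), and the phosphatase CTDSP1 (-0.62), which stabilises REST. RCOR3, a relative of RCOR1, rose by 0.48, while the demethylase KDM1A (0.04; limma, adjusted p = 0.74) and the methyltransferase EHMT2 (-0.01; limma, adjusted p = 0.92) did not pass the test. HDAC2 lost its call without SIRT1 knockdown replicate 1 or 2 or control replicate 1 or 2 (limma, adjusted p = 0.069 to 0.093). Matches to the 7-base words, which were ranked on this same comparison, were present in the 3′ UTRs of 4 of the 11, all 4 among the falls. They were present in 2220 of all 12674 searched genes. Whether the lower REST has a part in the synaptic rises was not tested.

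**Figure D3:**
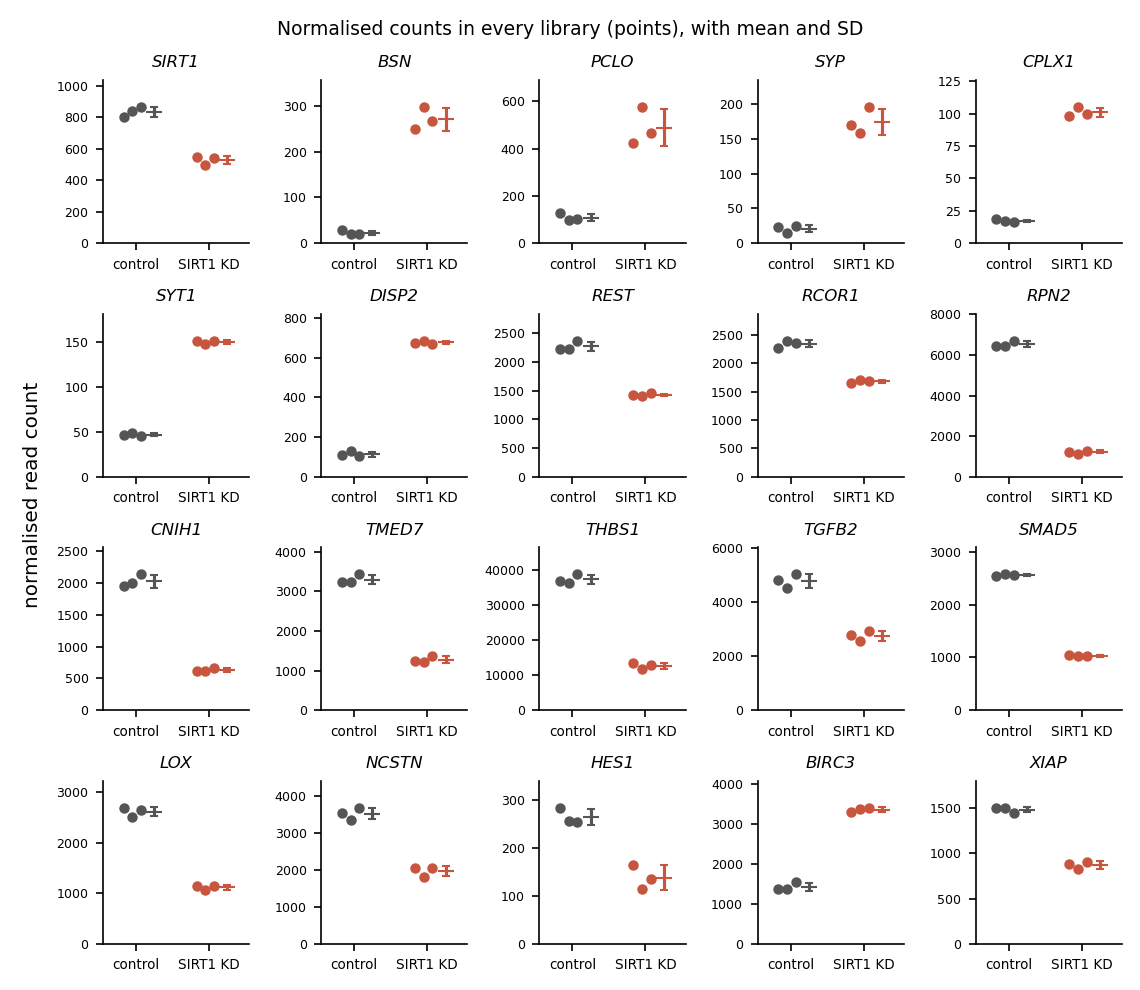
Normalised read count (y axis, from 0) of 20 genes in each control (grey) and SIRT1 knockdown (red) library; points are the 3 libraries of a group and the bar beside them the mean with its SD. In all 20 genes the groups do not overlap, as in 51% of all tested genes. SIRT1, REST and RPN2 are lower in knockdown cells, and SYP, CPLX1 and SYT1 are higher.

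In N-glycosylation a single subunit of the oligosaccharyltransferase stood far below the others. The enzyme attaches a preassembled glycan to asparagines of proteins entering the ER. RPN2 read 6449, 6422 and 6698 in control and 1235, 1139 and 1284 in knockdown libraries, leaving 18.7% of the control level (log2 fold change -2.42; 95% interval -2.55 to -2.29; limma, adjusted p = 1.4e-14). Of 12 measured subunits 3 fell and none rose: the other falls were MAGT1 (-0.91), an oxidoreductase subunit, and OSTC (-0.60), which tethers the enzyme to the translocon. The catalytic subunits STT3A (0.07; limma, adjusted p = 0.70) and STT3B (-0.11; limma, adjusted p = 0.24) did not pass the test.

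Further along the pathway, 7 of 18 glycan trimming and branching genes fell and 1 rose, with a median of -0.16. The falls included UGGT1 (-0.72), which checks the folding of glycoproteins, FUT8 (-0.81), which adds core fucose, B4GALT1 (-0.68), a galactosyltransferase, and MGAT4A (-1.15), which starts a branch. Its sister enzyme MGAT4B rose by 0.76. MGAT4A read 228, 218 and 202 against 101, 84.5 and 104, and MGAT4B read 4723, 4479 and 4436 against 7917, 7396 and 7705, so the pair moved apart without overlap in either. The assembly of the lipid-linked precursor showed no common direction: 6 of 24 genes rose, among them ALG9 (0.87) and ALG3 (0.45), both mannosyltransferases, and 4 fell, among them ALG14 (-0.83). Of these 3 lists, only the falls of the last moved by over 1.5 times when a library was left out: 2 were counted without any 1 of the 3 control libraries, SIRT1 knockdown replicate 2 or 3, or IGF2BP2 knockdown replicate 1 or 3, and 8 without double knockdown replicate 2.

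Cargo receptors, which load folded proteins into vesicles leaving the ER, were lower in 9 of 24 cases and higher in none, with a median of -0.15. CNIH1 read 1942, 1993 and 2130 in control and 623, 610 and 666 in knockdown libraries (log2 fold change -1.67; 95% interval -1.86 to -1.48; limma, adjusted p = 4.1e-10). TMED7, of the p24 family, read 3229, 3222 and 3424 against 1245, 1216 and 1375 (-1.36; 95% interval -1.61 to -1.12; limma, adjusted p = 1.6e-07). SURF4 fell by 0.72, and the partners LMAN1 and MCFD2, which carry clotting factors, by 0.51 and 0.60. Without double knockdown replicate 1 or 2, 1 or 2 receptors also rose, and the falls ranged from 7 to 13. PDIA4, a disulphide isomerase of the ER, fell by 1.15. Signal peptide recognition and translocation showed no common direction: 6 of 24 genes rose and 4 fell, with a median of 0.05, and SPCS3, of the signal peptidase, was the deepest fall (-1.02). Of those falls 1 was counted without control replicate 2, and 2 without control replicate 3 or any 1 of the SIRT1 knockdown libraries.

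Many ligands and activators of TGF-beta and BMP signalling were lower. These secreted factors bind paired receptor kinases that phosphorylate SMAD proteins, and in MDA-MB-231 cells they are known for promoting invasion. Of 19 measured ligands and activators 11 fell and none rose, with a median of -0.43. THBS1, thrombospondin 1, an activator of latent TGF-beta, read 36825, 36264 and 38672 in control and 13330, 11647 and 12863 in knockdown libraries (log2 fold change -1.56; 95% interval -1.69 to -1.44; limma, adjusted p = 1.3e-11). TGFB2 read 4811, 4495 and 5009 against 2782, 2547 and 2911 (-0.80; 95% interval -0.99 to -0.61; limma, adjusted p = 2.9e-06). Neither gene overlapped between groups. TGFB3 fell by 0.77, BMP4 by 0.62, the activin subunit INHBB by 0.62 and all 4 latent binding proteins, LTBP1 to LTBP4, by 0.40 to 0.63. TGFB1 did not pass the test, at 2941 ± 254 against 2898 ± 182 (SD, n = 3), and its groups overlapped.

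Receptors and SMADs split. TGFBR1, the type I receptor, fell by 0.74 and TGFBR2, the type II receptor, rose by 0.69, from 3832, 3607 and 3861 to 6092, 6029 and 6138. SMAD5, which carries BMP signals, read 2545, 2573 and 2568 against 1052, 1029 and 1021 (log2 fold change -1.31; 95% interval -1.47 to -1.15; limma, adjusted p = 7.6e-10), and the inhibitory SMAD6 fell by 1.16. The ubiquitin ligase SMURF2, which degrades SMADs and receptors, rose by 0.65 and the corepressor SKI by 0.51. In all, 10 of 23 fell and 5 rose, with a median of -0.10. Of 9 genes known to respond to the pathway 6 fell and none rose, among them LOX (-1.22), CCN2 (-0.93), a matricellular protein, and the BMP targets ID1 (-0.41) and ID3 (-0.67). LOX read 2686, 2519 and 2644 against 1144, 1065 and 1152. Without double knockdown replicate 2, 1 target gene also rose. Over all 51 genes of the pathway 27 fell and 5 rose, and 16 of the 27 carried a match to the 7-base words in the 3′ UTR, against 19 of the 51. Of all 12674 searched genes 2220 carried one, and of the 2442 lower ones 883 did. The words were ranked on this same comparison, so these counts are a description.

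Notch signalling depends on cleavage of the receptor by ADAM proteases and then by gamma-secretase, and several genes of these enzymes changed, not all in one direction. NCSTN, the nicastrin subunit of gamma-secretase, read 3536, 3361 and 3676 in control and 2047, 1820 and 2058 in knockdown libraries (log2 fold change -0.84; 95% interval -0.98 to -0.69; limma, adjusted p = 4.3e-08), with no overlap. ADAM17 fell by 0.63 and ADAM10 by 0.49, and the Fringe glycosyltransferases MFNG and LFNG, which tune ligand choice, by 1.23 and 0.73. PSEN2, a catalytic subunit of gamma-secretase, went the other way, up by 0.55, as did the receptor NOTCH1 (0.32). PSEN2 lost its call without SIRT1 knockdown replicate 2 or control replicate 1 (limma, adjusted p = 0.055 to 0.059). In total 9 of 20 genes for ligands, receptors and processing fell and 3 rose, with a median of -0.20; without control replicate 1, only 1 rose. Among nuclear effectors and targets 4 of 11 fell. They included the coactivator MAML1 (-0.63) and the target HES1, which read 282, 255 and 253 against 165, 113 and 135 (-0.95; 95% interval -1.21 to -0.68; limma, adjusted p = 1.5e-05). That count was 2 without control replicate 1, control replicate 3, SIRT1 knockdown replicate 1 or SIRT1 knockdown replicate 2.

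In the Hedgehog pathway 7 of 16 genes fell and 2 rose, with a median of -0.17. DISP2, a relative of the transporter that releases the ligand, rose from 109, 128 and 103 to 676, 685 and 672 normalised counts, a log2 fold change of 2.57 (95% interval 2.36 to 2.79; limma, adjusted p = 1.5e-11). The receptor and target PTCH1 (-0.61), the transcription factor GLI2 (-0.61), the coreceptor CDON (-0.80) and the inhibitor SUFU (-0.32) fell. SHH, the ligand, also fell (-1.39), but from only 17.2, 10.3 and 17.4 counts to 4.96, 7.43 and 3.16. No overlap between groups was seen in DISP2 or SHH.

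Wnt receptors were lower in 7 of 15 cases, with a median of -0.21, led by the Frizzled receptors FZD6 (-0.78), FZD3 (-0.77) and FZD1 (-0.59) and the coreceptor LRP5 (-0.40). Of 2 rises, FZD5 (0.28) and RYK (0.17), 1 was counted without IGF2BP2 knockdown replicate 1 or 3, SIRT1 knockdown replicate 2 or control replicate 1, and neither without SIRT1 knockdown replicate 1, SIRT1 knockdown replicate 3, control replicate 2 or control replicate 3. The other Wnt genes showed no common direction. Of 16 transduction and target genes 4 rose and 2 fell, with a median of 0.02, AXIN2, a feedback target, among the falls (-0.86). The rises were 2 without SIRT1 knockdown replicate 2, control replicate 1 or control replicate 3; the falls were 1 without SIRT1 knockdown replicate 2, 4 without double knockdown replicate 1 and 5 without double knockdown replicate 2. Of 12 ligands and modulators 1 rose and 1 fell, counts that ranged from 0 to 3 and from 0 to 2 when single libraries were left out.

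Among guidance cues, semaphorins and their receptors fell more often than they rose. Semaphorins signal through plexins and neuropilins to steer axons, vessels and migrating tumour cells. Of 27 such genes 11 fell and 4 rose, with a median of -0.21. SEMA3C read 2592, 2441 and 2667 in control and 923, 790 and 1018 in knockdown libraries (log2 fold change -1.50; 95% interval -1.72 to -1.28; limma, adjusted p = 8.0e-09). Both neuropilins fell, NRP1 by 0.56 and NRP2 by 0.60, as did PLXNA4 (-0.81) and PLXNA1 (-0.52). SEMA3A, another secreted class 3 semaphorin, rose by 0.58. Without SIRT1 knockdown replicate 1, 2 of the 4 rises were left. In the other guidance families few genes changed: of 16 ephrins and receptors 3 fell, EPHB3 (-0.95) among them, and 1 rose, with a median of 0.03, and of 10 netrins, slits and receptors 2 fell, UNC5B (-1.53) among them, and none rose, with a median of 0.02. The ephrin rise was not counted without SIRT1 knockdown replicate 3 or control replicate 3 and was joined by another without double knockdown replicate 2; 1 netrin or slit gene rose without control replicate 1 or double knockdown replicate 2.

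Among cell surface and matrix genes, integrins and collagens fell more often than they rose, and focal adhesion and laminin genes did not. None of 16 integrin subunits rose and 8 fell, with a median of -0.27, led by ITGB3 (-1.20), ITGA5 (-0.77), which binds fibronectin, ITGA1 (-0.70) and ITGA2 (-0.58), which bind collagen. The common partner ITGB1 did not pass the test (-0.17; limma, adjusted p = 0.084), though it did without double knockdown replicate 2 (limma, adjusted p = 0.007). The count of falls was 5 without SIRT1 knockdown replicate 2 or control replicate 1 and 4 without control replicate 3, while 1 integrin rose without double knockdown replicate 2. Among collagens 14 of 28 fell and 4 rose, with a median of -0.34. COL5A1 fell by 1.08, from 6276, 5882 and 5996 to 2980, 2663 and 2922, and COL7A1 and COL12A1 by 0.81 and 0.56, whereas COL1A1 rose by 0.54 from a level of 218, 230 and 220. Without SIRT1 knockdown replicate 1, 2 collagens rose. Of 10 laminins 3 rose and 1 fell, with a median of 0.17, and without double knockdown replicate 2, 2 fell. Of 24 focal adhesion genes 6 rose and 6 fell, with a median of 0.01; the rises were 2 without SIRT1 knockdown replicate 1, control replicate 1 or control replicate 3, and 3 without SIRT1 knockdown replicate 3. COL1A1 lost its call without SIRT1 knockdown replicate 1 or 2 or control replicate 1 or 3 (limma, adjusted p = 0.06 to 0.078).

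MOB1A, an adaptor that activates the LATS kinases of the Hippo pathway, was among the deepest falls, from 5379, 5630 and 5470 to 1651, 1549 and 1802 normalised counts (log2 fold change -1.72; 95% interval -1.92 to -1.53; limma, adjusted p = 4.4e-10). LATS1 itself rose by 0.54, and YAP1 and WWTR1, the coactivators that the pathway restrains, fell by 0.20 and 0.25. YAP1 lost its call without SIRT1 knockdown replicate 2 or 3 or any 1 of the controls (limma, adjusted p = 0.067 to 0.13). Of 14 genes known as YAP targets 10 fell and 1 rose, with a median of -0.21, among them CCN2, TGFB2 and FSTL1 (-0.94); the first 2 also stand among the TGF-beta genes above. Most of these falls were small: 4 were left without SIRT1 knockdown replicate 2 or control replicate 1 and 5 without SIRT1 knockdown replicate 3 or control replicate 3, and the rise was counted only without SIRT1 knockdown replicate 2 or double knockdown replicate 1 or 2.

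**Figure D4:**
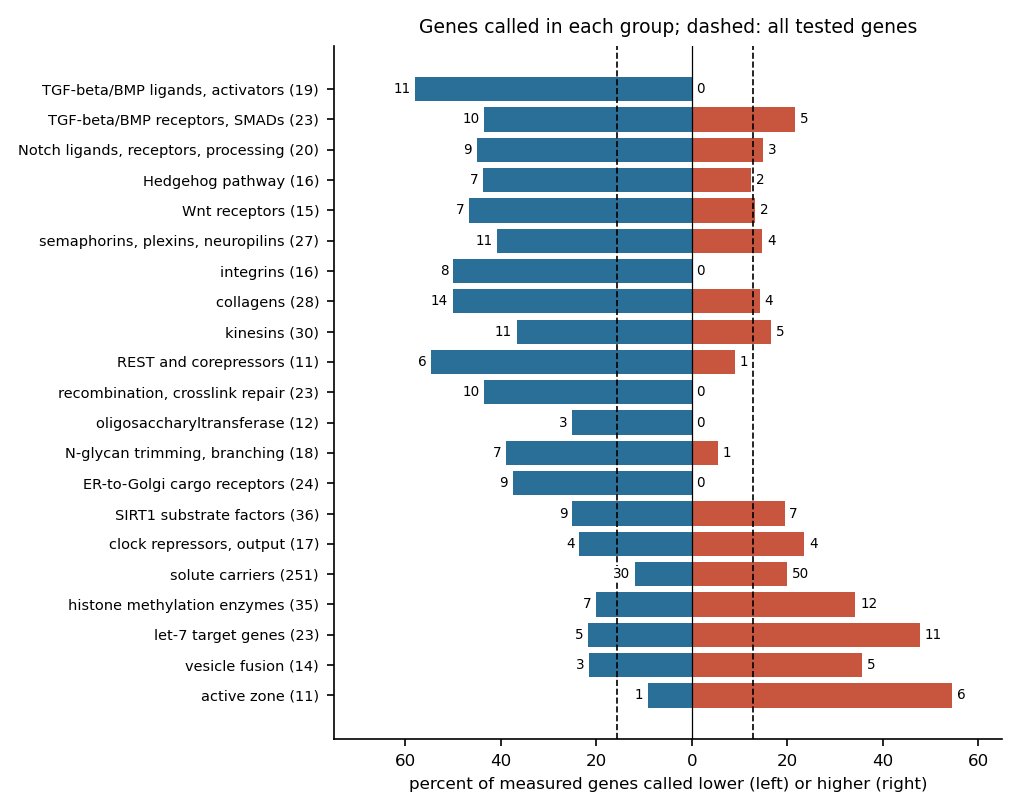
Percent of the measured genes of each group called lower (left, blue) or higher (right, red) in SIRT1 knockdown, with the number of genes called at the end of each bar and the number measured in parentheses; dashed lines mark the share over all tested genes, 15.7% lower and 12.9% higher. Among protein-coding genes alone the shares were 19.0% lower and 15.8% higher. Signalling and matrix groups extend left and the active zone and let-7 target groups extend right.

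Transcription factors and coactivators known as SIRT1 substrates showed no common direction at the RNA level. Of 36 measured 7 rose and 9 fell, with a median of 0.00. FOXO3, a stress and longevity factor, rose by 0.58, STAT3 by 0.39 and PPARGC1B, a coactivator of mitochondrial genes, by 1.07, while HIF1A, the hypoxia factor, fell by 0.49 and SREBF1, of lipid synthesis, by 0.48. Since deacetylation alters proteins, these values say nothing of the activity of the factors.

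NAD synthesis and use changed at single steps. NAMPT, the rate-limiting enzyme of NAD salvage, rose by 0.55, from 10183, 9750 and 10622 to 15292, 14878 and 14599 normalised counts. NNMT, which methylates nicotinamide and so withdraws it from salvage, fell by 0.90, from 3417, 3158 and 3456 to 1919, 1601 and 1854. In both the groups were apart. PARP1, which consumes NAD at DNA breaks, fell by 0.54 and the related deacetylase SIRT2 rose by 0.54. Of 14 synthesis genes 3 rose and 2 fell, with 1 rise without control replicate 2; of 20 consumers 3 rose and 5 fell. Among consumers 1 rise was counted without SIRT1 knockdown replicate 1 or 3 or control replicate 2, and 2 falls without SIRT1 knockdown replicate 2, control replicate 1 or control replicate 3, or 3 without SIRT1 knockdown replicate 1 or 3. SENP1, which can take SUMO off SIRT1, fell by 1.38.

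Histone methylation enzymes rose in 12 and fell in 7 of 35 cases, with a median of 0.07. The largest rises were KDM7A (1.01), a demethylase of histone H3, and DOT1L (0.84), which methylates H3 in transcribed genes. DOT1L read 1565, 1524 and 1499 in control and 2732, 2811 and 2696 in knockdown libraries (95% interval of the log2 fold change 0.70 to 0.99; limma, adjusted p = 4.0e-08). In the Polycomb group EZH1 (0.59) and JARID2 (0.56) rose and ASXL2 (-0.68) fell, while EZH2, the main methyltransferase of PRC2, did not pass the test (-0.17; limma, adjusted p = 0.11) except without double knockdown replicate 2 (limma, adjusted p = 0.021).

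In the circadian clock, which SIRT1 is known to modulate, 3 of 6 activators fell and 1 rose. BMAL1 fell by 0.46, the nuclear receptor RORB fell by 1.17, NPAS2 rose by 0.26 (its call lost without SIRT1 knockdown replicate 2 or 3 or control replicate 3; limma, adjusted p = 0.054 to 0.064), and CLOCK did not pass the test (-0.20; limma, adjusted p = 0.22) except without double knockdown replicate 2 (limma, adjusted p = 0.0045). BMAL1 lost its call without any 1 of the 6 compared libraries (limma, adjusted p = 0.053 to 0.07). Of 17 repressors and output genes 4 rose and 4 fell, with a median of 0.01. PER1 fell by 0.59 and PER2 rose by 0.39, so the paralogues diverged. DBP, a transcription factor driven by the clock, read 248, 208 and 232 against 112, 88.2 and 115 (log2 fold change -1.13; 95% interval -1.44 to -0.81; limma, adjusted p = 1.4e-05).

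Targets of the let-7 microRNA family rose more often than they fell, in 11 against 5 of 23 cases, with a median of 0.18. These genes are mostly oncofetal or growth-promoting. NR6A1, a nuclear receptor of early embryos, read 171, 191 and 171 in control and 407, 395 and 382 in knockdown libraries (log2 fold change 1.15; 95% interval 0.97 to 1.32; limma, adjusted p = 1.2e-08). CCND1, cyclin D1, read 11759, 12130 and 11698 against 19752, 19472 and 20027 (0.74; 95% interval 0.61 to 0.86; limma, adjusted p = 5.1e-08). HMGA2 rose by 1.89 and IGF2BP3 by 0.75. The falls included THBS1, TGFBR1 and IL6, each of which carries at least 1 match to the 7-base words in its 3′ UTR. Of 22 genes of the silencing machinery 5 rose and 4 fell, with a median of 0.10. The falls were led by the deadenylase CNOT6L (-0.85); 1 fall was counted without SIRT1 knockdown replicate 2, control replicate 2 or control replicate 3 and 2 without control replicate 1, and 8 genes rose without double knockdown replicate 2. DCP2, the mRNA decapping enzyme, rose from 1667, 1695 and 1751 to 4223, 4306 and 4255 (1.32; 95% interval 1.17 to 1.48; limma, adjusted p = 5.3e-10), and the Argonaute genes AGO4 and AGO3 by 0.99 and 0.60.

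Apoptosis genes moved on both sides of the balance. XIAP, a direct inhibitor of caspases, read 1500, 1499 and 1447 in control and 886, 825 and 907 in knockdown libraries (log2 fold change -0.76; 95% interval -0.91 to -0.62; limma, adjusted p = 1.9e-07). By contrast, 2 other survival genes rose, BIRC3 by 1.24 and MCL1 by 0.65. Of the BCL2 family 4 of 14 rose, among them the death-promoting BAK1 (0.63) and BBC3 (0.67), and 2 fell; without double knockdown replicate 2, 5 fell. Caspases, inhibitors and death receptors rose in 6 and fell in 8 of 25 cases, with a median of -0.11.

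Growth factor genes moved in both directions. Of 20 measured ligands of receptor kinases 3 rose and 6 fell, with a median of -0.06. Of 16 receptors 5 rose and 4 fell, with a median of 0.02. The receptor falls ranged from 1 to 4 when single libraries were left out. The EGF receptor ligand EREG rose by 0.88, from 628, 605 and 600 to 1134, 1048 and 1209 normalised counts, and its neighbour AREG fell by 0.51, from 2431, 2103 and 2258 to 1655, 1503 and 1592. EGFR, their receptor, overlapped between groups (0.02; limma, adjusted p = 0.84). PDGFRB fell by 1.39, from 446, 412 and 453 to 192, 145 and 163, and the cytokine receptor subunit IL6ST by 0.87. Of 13 feedback regulators of receptor kinases 3 rose and 6 fell; SPRY2 and SPRY4, inhibitors of ERK signalling, rose by 0.57 and 0.72.

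DNA repair genes fell or did not pass the test, and none rose. In homologous recombination and crosslink repair 10 of 23 fell, with a median of -0.32, by 0.35 to 0.64; they included BRCA2 (-0.64), FANCI (-0.58), FANCA (-0.52) and BRCA1 (-0.45). The largest fall in repair was UNG, which removes uracil from DNA, from 1146, 1216 and 1178 to 553, 542 and 580 (log2 fold change -1.08; 95% interval -1.22 to -0.94; limma, adjusted p = 1.5e-09). In end joining, mismatch and excision repair 6 of 33 fell, with a median of -0.03, a share near the 15.7% of all tested genes. Without double knockdown replicate 2, 15 recombination genes fell and 1 rose, and without control replicate 2, 3 of the other repair genes fell. Only 2 of the 23 recombination genes carried a match to the 7-base words, neither of them among the falls. In double over IGF2BP2 knockdown 3 of the same 23 fell and 2 rose, where 15.2% of all tested genes fell and 16.4% rose. The difference between the counts of the 2 comparisons was not tested.

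Among gene families taken by symbol, solute carriers rose in 50 and fell in 30 of 251 cases, with a median of 0.07. SLC25A13, the mitochondrial aspartate-glutamate carrier, read 774, 888 and 803 against 1789, 1647 and 1648 (log2 fold change 1.04; 95% interval 0.89 to 1.19; limma, adjusted p = 5.3e-09). SLC27A4, a fatty acid transporter, rose by 0.82 and SLC17A5, which exports sialic acid from lysosomes, by 0.77, whereas SLC40A1, the iron exporter ferroportin, fell by 1.15. Kinesins, the motors of outward transport on microtubules, fell in 11 and rose in 5 of 30 cases, with a median of -0.10: the conventional motor KIF5B fell by 0.98, from 6909, 7335 and 7055 to 3633, 3493 and 3676, and KIF3B, of the ciliary motor, by 0.86, while KIF1C rose by 0.52.

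Outside these groups, MUC5AC, a secreted gel-forming mucin, read 204, 205 and 218 in control and 490, 520 and 564 in knockdown libraries (log2 fold change 1.32; 95% interval 1.12 to 1.53; limma, adjusted p = 1.3e-08). Other rises of more than 2-fold were MAPK11 (1.51), a p38 kinase, the ubiquitin ligase MARCHF4 (1.58), HMOX1 (1.34), which degrades haem, and BTG2 (1.17), an antiproliferative gene. Large falls were TSPAN9 (-1.70), a tetraspanin, GALNT2 (-1.54), which starts O-glycans, F2RL1 (-1.57), a protease-activated receptor, BCAT1 (-1.56), SORT1 (-1.37), a sorting receptor, and IARS1 (-1.34), the isoleucyl-tRNA synthetase. All of these were free of overlap, which the naming rule required of the largest changes. So were 51% of all tested genes and 4991 of the 5030 called ones.

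At the top of expression the elongation factors parted. EEF2, which translocates the ribosome, fell from 45884, 44400 and 47543 to 32695, 28550 and 30942 normalised counts (log2 fold change -0.58; 95% interval -0.71 to -0.45; limma, adjusted p = 1.2e-06). EEF1A1, which delivers tRNA, rose by 0.35, though its many processed copies make its count less certain. VIM, vimentin, rose by 0.42.

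Long non-coding RNAs that were called were mostly lower, and small nucleolar RNAs that were called were higher. Neither class was called that way more often than all tested genes. Of long intergenic RNAs 12.1% fell, against 15.7% of all tested genes. Of small nucleolar RNAs 10.3% rose, against 12.9%. Of 13207 protein-coding genes 2086 rose and 2505 fell, of 884 long intergenic RNAs 32 and 107, with a median of -0.11, and of 78 small nucleolar RNAs 8 and 0, with a median of 0.39. Many of these have low counts, where a given fold is harder to call. LINC-PINT, a long intergenic RNA, read 293, 316 and 288 in control and 610, 811 and 666 in knockdown libraries (log2 fold change 1.21; limma, adjusted p = 5.9e-07). LINC03033 fell by 1.35. No source used here says whether counting used strand, so reads of overlapping genes on opposite strands cannot be told apart.

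The second pair of groups compared cells with and without a SIRT1 hairpin on an IGF2BP2 knockdown background. It had no library in common with the first, though one shared estimate of the spread. IGF2BP2 is an RNA-binding protein that reads methylated adenosine and stabilises transcripts. SIRT1 was lower there too, at 728 ± 35.8 in IGF2BP2 knockdown against 404 ± 28.7 in double knockdown (SD, n = 3; log2 fold change -0.85; limma, adjusted p = 2.6e-07). In that pair 5550 genes, 31.6%, were called, 2885 (16.4%) upward and 2665 (15.2%) downward. The 2 comparisons called 3182 genes the same way, which is 63.3% of the first list and 57.3% of the second, and 43 genes in opposite ways. The direction was shared by 90.9% of the genes called in the first comparison and by 70.6% of all tested genes.

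Genes that changed by at least 2-fold kept much of their size in the second pair. They were picked by the size of their first change, which by itself favours a smaller second one. Of the 478, 341 were called the same way there, 71.3%. The median of the 126 rises was 1.21 in the first and 0.81 in the second comparison, and that of the 352 falls -1.22 and -0.94. SYT1 (2.34), MAPK11 (1.56), NR6A1 (1.59), CCND1 (0.56), RPN2 (-2.04), CNIH1 (-1.49), THBS1 (-1.49), TGFB2 (-1.0), SEMA3C (-1.46), LOX (-1.21), NCSTN (-0.83) and REST (-0.61) were all called there in the same direction. The difference between the 2 comparisons itself passed the interaction test (limma) for 2.86% of all tested genes. It also did for 35 of the 186 genes named here, many of which were picked for their first change. MUC5AC was the opposite case: it read 525 ± 41.7 in IGF2BP2 knockdown and 181 ± 18.3 in double knockdown, a fall of 1.53 on the log2 scale (limma, adjusted p = 3.3e-09). Lists also differed in number: 26 of 37 protocadherins fell in the second pair, where 15.2% of all tested genes did. In the first pair 6 of them fell, where 15.7% of all tested genes did. The clustered members of this family share exons, and the difference between these counts was not tested.

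**Figure D5:**
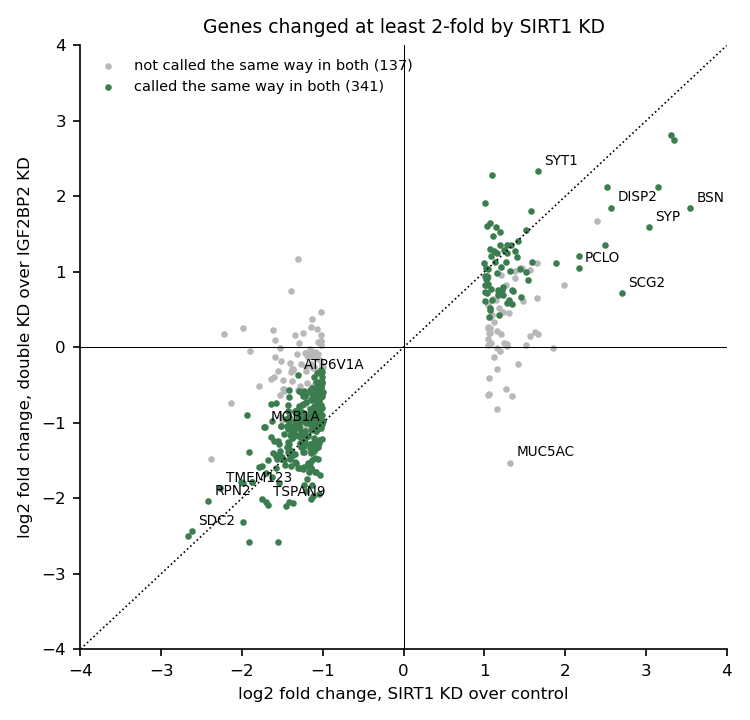
Log2 fold change in double knockdown over IGF2BP2 knockdown (y axis) against that in SIRT1 knockdown over control (x axis) for the 478 genes changed at least 2-fold in the first; green points are the 341 called the same way in both, and the dotted line marks equal change. MUC5AC lies on the opposite side, at 1.32 and -1.53, and BSN and SYP rise less in the second pair.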

How the data were processed

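RNA was sequenced from 12 libraries, 3 in each of 4 groups, of which the 6 of SIRT1 knockdown and control were compared. Per the submitters' processing notes, CASAVA, STAR and DESeq2 were used with GRCh38.p13; no source used here gives versions, the gene annotation or the strand setting. The authors deposited a signal table of read counts divided by size factors; 100% of its values came out as whole reads within 0.001 once each column's step was found, although in SIRT1 knockdown replicate 1 and IGF2BP2 knockdown replicate 2 the step (0.993 and 1.005) lies so near 1 that the recovery could not be checked independently. Its columns with the code K were read as SIRT1 knockdown by elimination and checked against the authors' deposited log2 ratios, whose columns are fully named: over 11137 genes, the SD of the difference was at most 0.00365 for the same library and at least 0.118 for any other. In the raw count table, 12 columns carry no sample name and were not used. Of 60649 gene IDs, 60507 matched a symbol and 58381 GENCODE 29.

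Genes passing edgeR's filterByExpr with a minimum count of 10 were tested with limma 3.58.1 (R 4.3.3, trend and robust settings) on log2(normalised count + 1), with all 12 libraries sharing one estimate of the spread and Benjamini-Hochberg adjustment over all 17576 genes; calls are at an adjusted p under 0.05. Since no source names separate infections, p-values measure the spread between these libraries, which may be technical. The count tests edgeR 4.0.16 and DESeq2 1.42.0 were alternatives on the recovered reads, with edgeR calling 5290 genes and DESeq2 5047. The fit was tested on simulated data. A non-overlap means that every library of one group lies above every library of the other.

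The members, the 35 gene lists and the 25 families were chosen with earlier results of these data known. Genes were named by rule: protein-coding, called, at a mean of at least 5 CPM and without overlap, the 25 largest rises and falls, the 10 largest in normalised counts and the 10 smallest p-values; the 5 largest non-coding rises and falls; and up to 5 members per list by adjusted p, with its defining members. Not all of these are printed, and other genes in the text, the members of families and further list members among them, were chosen after their values were seen. Sequences were read from GRCh38 with GENCODE 29 models, and microRNAs from the RefSeq table. Several lists share genes, and some members of the lists are counted but not reported here by name.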

Additional observations from a re-analysis of the deposited data

Results flagged for a closer look

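For 35 of the 186 genes named above, the change with the SIRT1 hairpin differed between the 2 backgrounds by the test of the difference itself. That test was the limma interaction of double over IGF2BP2 knockdown against SIRT1 knockdown over control, adjusted over all genes. It was passed by 2.86% of all tested genes. Many of the named genes were picked for their change in the first comparison, which is part of this difference. That choice favours smaller second changes, so the 35 and the directions counted below are not like for like with the 2.86%. The values below are the second log2 fold change minus the first. Differences of the libraries other than the background, such as the hairpins used, cannot be told apart from it.

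In 21 genes the change kept its sign and was smaller on the IGF2BP2 knockdown background. Among rises these were the synaptic genes BSN (-1.7; adjusted p = 0.00759), SYP (-1.44; adjusted p = 0.00697), CPLX1 (-1.13; adjusted p = 0.0231) and PCLO (-1.12; adjusted p = 0.0134) in the limma test, which still rose there by 1.85, 1.60, 1.36 and 1.04. The other rises were HMGA2 (-0.771), HMOX1 (-0.769), DISP2 (-0.724), AGO4 (-0.525), TGFBR2 (-0.463), SPRY2 (-0.462) and SKI (-0.315). Among falls the difference was positive: UNG (0.733), MOB1A (0.659), ITGA5 (0.509), FANCI (0.479), SPCS3 (0.476), FSTL1 (0.44), FANCA (0.419), SMAD5 (0.399), RPN2 (0.383) and IARS1 (0.36).

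In 7 genes the change was larger there. The falls of INHBB (-0.958), EPHB3 (-0.814), BMP4 (-0.61), PLXNA1 (-0.514) and NRP1 (-0.423) were deeper, and the rises of PPARGC1B (0.574) and NR6A1 (0.448) higher.

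In 7 genes the sign differed. MUC5AC rose in the first comparison and fell in the second, a difference of -2.85 (limma, adjusted p = 1.2e-09), and NPAS2 did so by -0.522 (limma, adjusted p = 0.0157). In the remaining 5 the second change did not pass its own test: SEMA3A (-0.838), SPRY4 (-0.722), BBC3 (-0.674), LTBP3 (0.611) and MT-ND4L (-0.443). Mitochondrial transcripts took 1.18% of reads in double knockdown replicate 2, against 2.45% and 2.40% in replicates 1 and 3. The part of that library in the difference of MT-ND4L was not tested. For none of the 35 genes is the interaction given here without single libraries.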

How the results depend on the processing

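No called gene named by rule or in the text changed direction under any alternative run. Using only the 6 compared libraries gave 7784 called genes, 3797 of them higher, and 4986 of the 5030 were called there too; the count called the same way in both pairs could not be given in that setting, which leaves out the second pair. A pseudocount of 10 left 236 genes at 2-fold or more, since it shrinks the changes of low genes. Leaving out 1 library at a time gave 3911 to 7017 called genes, 1698 to 3328 higher, 2107 to 3689 lower, 441 to 558 with at least 2-fold change and 2552 to 4221 called the same way in both pairs; each highest value came without double knockdown replicate 2. Replicate numbers are shared by the groups, but same-numbered control and SIRT1 knockdown libraries did not deviate together (correlations of -0.05, 0.05 and 0.05, against 0.06, -0.01 and 0.06 with the best other number), so the numbers were not taken as pairs; with the replicate block 5098 genes were called, 2304 higher and 2794 lower. Of 412 genes named by rule or in the text, 352 kept their side of the threshold in all 21 alternatives; most losses came from leaving out a compared library, with 27 to 36 called genes lost in each case. Depth limits genes of low count, where a count such as that of SHH rests on few reads.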
